A study of Homo sapiens with 19 samples.

Results

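Retinoic acid is made from vitamin A, and the 10 genes described here cover its uptake, synthesis, breakdown and receptors: STRA6, DHRS3, ALDH1A1, ALDH1A2, ALDH1A3, CYP26A1, CYP26B1, RARA, RARB and RARG. They were chosen by gene symbol, each symbol matched 1 row, and they are 10 of the 33382 genes in the tables. RNA-seq was read in 12 samples of 6 lines of H1, an established human embryonic stem cell (hESC) line, with 2 samples for each line. They were WT H1, the single knockouts SUZ12-/- H1, EED-/- H1, EZH2-/- H1 and EZH1-/- H1, and EZH2-/-/EZH1-/- H1, which lacks both enzymes. Another 7 samples came from H1-EED-/-/EED-OE cells, in which the endogenous EED gene is knocked out and an EED transgene is switched on by doxycycline (DOX). Of these, 1 sample, whose label also carries D28, was taken in the presence of DOX, and the others, 1 per time, after 8, 12, 16, 20, 24 or 28 days in its absence. EED, SUZ12, EZH1 and EZH2 are core parts of polycomb repressive complex 2 (PRC2), which places the repressive histone mark H3K27me3. The lines without EED, without SUZ12 or without both enzymes are called PRC2-null here, since the mark was absent from them on western blots, and the other 3 lines, which kept it, are called the retaining lines. Per the study, EZH1-/- H1 and EZH2-/- H1 kept less of the mark than WT H1. Knockouts were made with CRISPR/Cas9 and a drug-resistance donor, the surviving colonies were expanded as clones, and all lines were kept in a medium for undifferentiated hESCs. The labels tell the 2 samples of a line apart by clone- or passage-like names but do not say that they were grown separately, so p-values measure only the spread between these samples.

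Retinol enters cells through STRA6, is oxidised to retinal, and is then oxidised by the ALDH1A enzymes to retinoic acid. CYP26 enzymes break retinoic acid down, and DHRS3 turns retinal back into retinol, so both limit the signal. Retinoic acid binds the receptors RARA, RARB and RARG, which pair with retinoid X receptors (RXRs) on direct repeats of a short DNA motif. In the embryo the pathway patterns the hindbrain, trunk mesoderm and gut endoderm, and RARB, CYP26A1, DHRS3 and STRA6 are among its own targets. Added retinoic acid drives hESCs out of pluripotency.

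Values were deposited as TPM, each gene's share of all transcripts after correction for transcript length, which keeps no read depth, so no counting interval is given. The PRC2-null samples differed from the others in cell type markers. The summed TPM of 6 pluripotency genes, POU5F1, NANOG, SOX2, LIN28A, DNMT3B and PRDM14, was 108 to 387 in the 6 PRC2-null samples and 4345 to 5727 in the 6 retaining samples. For 7 genes of endoderm and yolk sac, among them AFP, APOA1 and SOX17, the sum was 1440 to 20168 against 5.03 to 15.1, with TTR at 0 in all 6 retaining samples. For 6 genes of mesoderm, endothelium and stroma it was 3353 to 14223 against 58.6 to 181, with HAND1 at 0 in all 6 retaining samples. The 4 trophoblast genes summed to 78.7 to 407 against 12.1 to 14.8, and the sum of the 4 neural genes overlapped, at 67.1 to 385 against 94.5 to 196. Of these 4, PAX6 alone was higher in all 6 PRC2-null samples, at 5.66 to 129 TPM against 0.24 to 0.70. In bulk RNA, fewer cells of a type and less RNA per cell cannot be told apart, and the part of cell type makeup in the results below was not tested. EED, SUZ12, EZH1 and EZH2 were not called lower in their own knockouts. Their TPM covers the whole gene while, per the study's methods, the deletions removed a functional domain, so these values do not check the labels. EED itself was at 109 TPM with DOX and at 12.6 to 31.6 TPM on the 6 days without it. The spread between the 2 samples of a line, as a robust SD of the log2 ratio over genes with a mean of at least 100 TPM, ran from 0.078 in SUZ12-/- H1 to 0.602 in EZH2-/-/EZH1-/- H1, so the SUZ12-/- samples were the closest pair.

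Synthesis enzymes and RARB were higher in the PRC2-null lines than in WT H1, and RARG was lower. The 3 PRC2-null lines averaged together were called higher than WT H1 for ALDH1A1, ALDH1A2, ALDH1A3, RARB and STRA6, which is 5 of 10 genes where 13.6% of all 19100 genes tested were called higher. They were called lower for RARG alone, 1 of 10 genes where 5.36% of all genes were called lower. Calls came from limma, a linear model with moderated variances, on log2(TPM + 1), and needed both a change of 3-fold or more and an FDR (expected share of false calls) of at most 1%. On that scale the median of all genes was itself 0.28 above WT H1, and it was 0.10 above after median-ratio scaling of the samples. All 10 genes passed the filter on low values, but ALDH1A2, RARB and CYP26B1 passed it only through the PRC2-null samples. Every comparison with WT H1 rests on the same 2 WT samples.

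Sample by sample, the 2 sets of lines were fully apart for 6 of the genes. The 6 PRC2-null samples all lay above the 6 retaining samples for ALDH1A1, ALDH1A2, CYP26B1, RARA and RARB. That is 5 of 10 genes against 24.2% of the 19100 genes tested. Of these 5, ALDH1A2, CYP26B1 and RARB passed the filter on low values only through the PRC2-null samples. Their direction was therefore in part fixed by that filter. The PRC2-null samples all lay below for RARG, 1 of 10 against 13.3%. ALDH1A3, CYP26A1, DHRS3 and STRA6 overlapped.

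**Figure D1:**
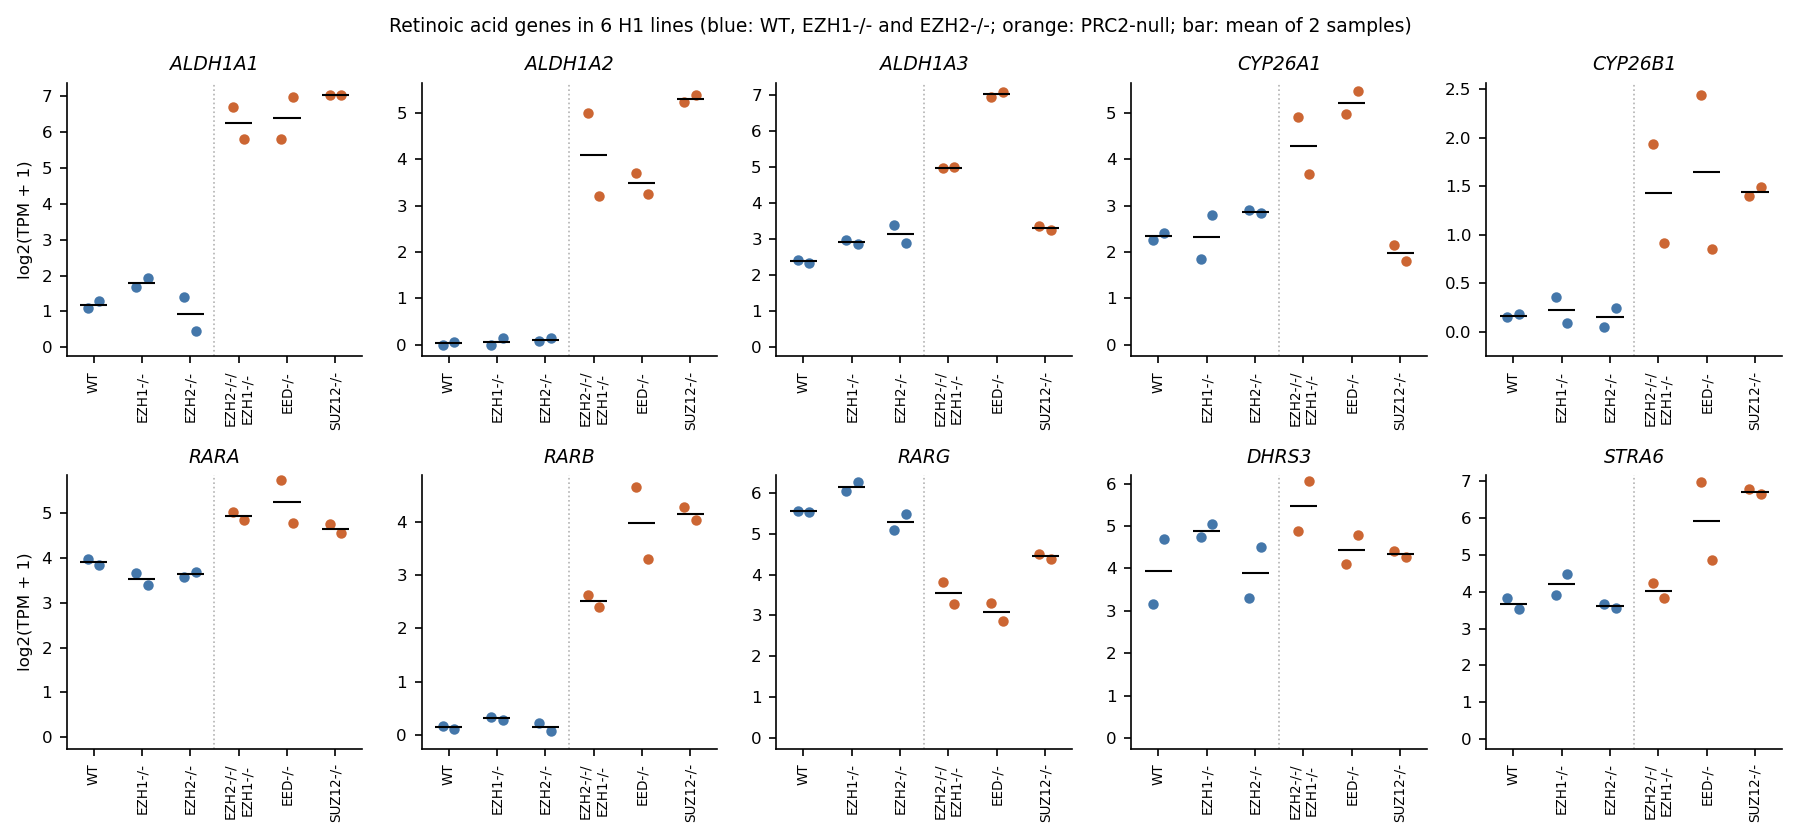
Expression of the 10 genes as log2(TPM + 1) in each of the 12 samples of the 6 lines, with points for samples and a bar for the mean of the 2 samples of a line, the vertical scale differing between panels. ALDH1A1, ALDH1A2 and RARB separate the 6 PRC2-null samples (orange) from the 6 others (blue) with a wide gap, whereas ALDH1A3 and CYP26A1 are near the retaining lines in SUZ12-/- H1.

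The 3 retinaldehyde dehydrogenases, which carry out the last step of retinoic acid synthesis, were all higher in the PRC2-null lines on average, but ALDH1A3 was not called in SUZ12-/- H1. ALDH1A1 (ENSG00000165092, GRCh38 chr9:72900671-73080442, minus strand) was at 1.14 and 1.43 TPM in WT H1, 2.19 and 2.83 in EZH1-/- H1, and 1.64 and 0.36 in EZH2-/- H1. It was at 55.2 and 125 TPM in EED-/- H1, 130.0 and 131 in SUZ12-/- H1, and 103 and 55.1 in EZH2-/-/EZH1-/- H1. The lowest PRC2-null sample was thus far above the highest retaining sample. The log2 fold change of the PRC2-null average was 5.37 (SE 0.36, limma adjusted p = 7.6e-07).

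ALDH1A2, the main source of retinoic acid in early embryonic mesoderm (ENSG00000128918, chr15:57953424-58497866, minus strand), was close to absent in the retaining lines, with a range of 0 to 0.1 TPM over their 6 samples. It reached 12.0 and 8.58 TPM in EED-/- H1, 36.8 and 40.6 in SUZ12-/- H1, and 30.8 and 8.26 in EZH2-/-/EZH1-/- H1. The groups did not overlap, and the 2 EZH2-/-/EZH1-/- samples stood far apart from each other. Its log2 fold change on average was 4.27 (SE 0.38, limma adjusted p = 5.3e-06). ALDH1A2 passed the filter on low values only through the PRC2-null samples.

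ALDH1A3 (ENSG00000184254, chr15:100877714-100916626, plus strand) had the highest level of the 3 enzymes in WT H1, at 4.39 and 4.06 TPM. It stood at 6.89 and 6.29 TPM in EZH1-/- H1 and at 9.54 and 6.40 in EZH2-/- H1. In EED-/- H1 it reached 123 and 135 TPM, in EZH2-/-/EZH1-/- H1 30.1 and 30.9, and in SUZ12-/- H1 9.26 and 8.55. Both SUZ12-/- samples therefore lay below the higher EZH2-/- sample. The log2 fold change was 4.64 in EED-/- H1 (SE 0.23, limma adjusted p = 2.4e-07), 2.59 in EZH2-/-/EZH1-/- H1 (SE 0.23, limma adjusted p = 1.3e-05), and 0.92 in SUZ12-/- H1, which was under the fold required (SE 0.23, limma adjusted p = 0.0078).

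Since TPM is scaled for length, the 3 enzymes can be summed. Their summed level was 5.53 to 11.2 TPM in the retaining samples and 94.3 to 269 TPM in the PRC2-null samples. ALDH1A3 made up 68.2% to 93.3% of the sum in the retaining samples and 4.75% to 64.7% in the PRC2-null samples, where ALDH1A1 made up 29.0% to 73.8%.

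CYP26A1 and CYP26B1, the cytochrome P450 enzymes that inactivate retinoic acid, did not pass the test for the PRC2-null average. CYP26A1 (ENSG00000095596, chr10:93073475-93077885, plus strand) was at 3.77 and 4.34 TPM in WT H1, 2.61 and 5.99 in EZH1-/- H1, and 6.52 and 6.12 in EZH2-/- H1. It was at 30.4 and 43.0 TPM in EED-/- H1 and at 29.0 and 11.8 in EZH2-/-/EZH1-/- H1, but at 3.47 and 2.47 in SUZ12-/- H1. The EED-/- and EZH2-/-/EZH1-/- samples were above every retaining sample, and the SUZ12-/- samples lay within or below their range.

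The log2 fold change of CYP26A1 was 2.88 in EED-/- H1 (SE 0.42, limma adjusted p = 0.00024) and 1.96 in EZH2-/-/EZH1-/- H1 (SE 0.42, limma adjusted p = 0.0036). The second call was lost when either WT H1 sample (1.88 without the first, limma adjusted p = 0.030, and 2.04 without the second, 0.021) or EZH2-/-/EZH1-/- replicate 1 (1.35, 0.019) was left out. In SUZ12-/- H1 the value was -0.36 (limma adjusted p = 0.52).

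CYP26B1 (ENSG00000003137, chr2:72129238-72147862, minus strand) stayed low throughout. Its 6 retaining samples ranged from 0.04 to 0.28 TPM with a median of 0.125, and its 6 PRC2-null samples from 0.81 to 4.44 TPM with a median of 1.73. The groups did not overlap, but at 1.34 the log2 fold change of the average missed both thresholds (SE 0.38, limma adjusted p = 0.012). With a pseudocount of 0.1 TPM in place of 1, or without EED-/- replicate 2, it was called, at 3.04 and 1.60.

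Of the receptors, RARG was the most abundant in the retaining lines and RARA in the PRC2-null lines. RARG (ENSG00000172819, chr12:53210567-53232980, minus strand) was at 45.6 and 45.5 TPM in WT H1, 64.8 and 75.4 in EZH1-/- H1, and 33 and 43.7 in EZH2-/- H1. It fell to 8.93 and 6.33 TPM in EED-/- H1 and to 13.1 and 8.77 in EZH2-/-/EZH1-/- H1, and stood at 21.8 and 19.8 TPM in SUZ12-/- H1. All 6 PRC2-null samples lay below all 6 others. The log2 fold change was -1.85 on average (SE 0.21, limma adjusted p = 2.9e-05), -2.45 in EED-/- H1, -1.99 in EZH2-/-/EZH1-/- H1, and -1.10 in SUZ12-/- H1, where it was under the fold required (limma adjusted p = 0.0047).

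RARB (ENSG00000077092, chr3:24687887-25597932, plus strand), the receptor gene best known to be induced by retinoic acid itself, was at 0.06 to 0.27 TPM in the 6 retaining samples, with a median of 0.15. It reached 23.9 and 8.90 TPM in EED-/- H1, 18.2 and 15.3 in SUZ12-/- H1, and 5.18 and 4.25 in EZH2-/-/EZH1-/- H1. The lowest PRC2-null sample was well above the highest of the others. Its log2 fold change was 3.39 on average (SE 0.31, limma adjusted p = 6.6e-06). RARB passed the filter on low values only through the PRC2-null samples.

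RARA (ENSG00000131759, chr17:40309180-40357643, plus strand), the most broadly expressed receptor of the family, ran from 9.56 to 14.8 TPM in the retaining samples, with a median of 11.8. It ran from 22.5 to 51.8 TPM in the PRC2-null samples, with a median of 27.1, and the highest value was EED-/- replicate 1. The groups did not overlap, yet the log2 fold change of 1.03 was under the fold required (SE 0.24, limma adjusted p = 0.0040).

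As a share of the summed receptor TPM, RARG held 74.9% to 88.5% in the retaining samples and 10.5% to 34.4% in the PRC2-null samples. RARA held 11.2% to 24.8% against 39.1% to 68.1%, and RARB 0.11% to 0.39% against 10.4% to 28.2%. The sum itself overlapped between the groups, at 44.1 to 85.2 TPM against 40.8 to 84.7 TPM. These shares do not depend on how the samples were scaled to one another.

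**Figure D2:**
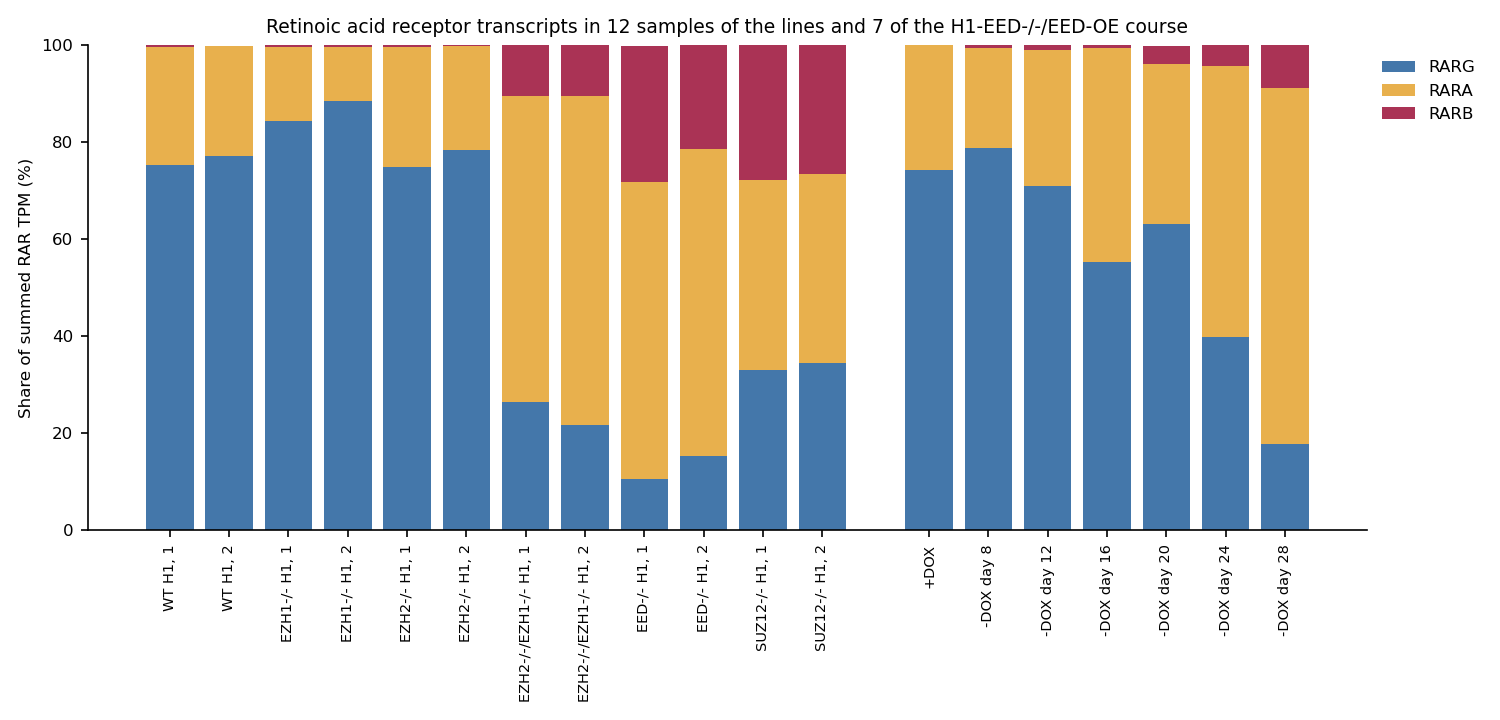
Shares of RARG, RARA and RARB in their summed TPM, in percent, with 1 bar for each of the 12 samples of the lines (left) and the 7 samples of H1-EED-/-/EED-OE cells (right). RARG held at least 74.9% in the 6 samples of the retaining lines and at most 34.4% in the 6 PRC2-null samples, and went from 74.2% with DOX to 17.7% at day 28 without it.

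Retinoic acid receptors bind direct repeats, and such a repeat lies before RARB and before CYP26A1, the 2 members for which sequence is shown for that reason. In the RefSeq windows of GRCh38.p14 from 250 bases before to 50 bases after each gene start, 23 windows belong to the 10 genes, at least 1 for each. They were searched on both strands for 2 copies in a row of the hexamer AGGTCA, of its variant AGTTCA, of the variant GGGTCA or of the variant GGTTCA, in any combination, with 1, 2 or 5 bases between the copies. Repeats with a spacing of 5 were found in 1 window of RARB and 1 of CYP26A1, and in 31 of all 35116 windows (0.0883%). Spacings of 1 and 2 were found in 0.131% and 0.0399% of all windows and in none of the 23. The RARB repeat spans chr3:25428210-25428226 on the gene's strand, 53 to 37 bases before the start at 25428263. The CYP26A1 repeat spans chr10:93073803-93073819 and reads on the opposite strand, 90 to 74 bases before the start at 93073893. Other annotated starts lie upstream, so in GENCODE 44 the match is in an untranslated exon of 3 of 23 RARB transcripts and 1 of 6 CYP26A1 transcripts. Below, each is given 5′ to 3′ on the plus strand with 6 bases on either side, and capitals mark the repeat.
RARB, chr3:25428204-25428232: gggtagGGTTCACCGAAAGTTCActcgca
CYP26A1, chr10:93073797-93073825: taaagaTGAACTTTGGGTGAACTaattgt
A match of letters is a description and no evidence of binding in these cells.

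STRA6, the membrane receptor that takes up retinol from its carrier RBP4 (ENSG00000137868, chr15:74179466-74212267, minus strand), was higher in 2 of the 3 PRC2-null lines. It was at 13.2 and 10.5 TPM in WT H1, 14.1 and 21.2 in EZH1-/- H1, and 11.6 and 10.7 in EZH2-/- H1. It reached 125 and 28.2 TPM in EED-/- H1 and 108 and 99.3 in SUZ12-/- H1, while EZH2-/-/EZH1-/- H1 stayed at 17.7 and 13.1. The 2 EED-/- samples were far apart, and the EZH2-/-/EZH1-/- samples lay inside the range of the retaining lines.

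The log2 fold change of STRA6 was 3.04 in SUZ12-/- H1 (SE 0.52, limma adjusted p = 0.00071) and 2.25 in EED-/- H1 (SE 0.52, limma adjusted p = 0.0041). For the average it was 1.88 (SE 0.42, limma adjusted p = 0.0032). The call of the average was lost without WT H1 replicate 1 (2.03, limma adjusted p = 0.022), without WT H1 replicate 2 (1.72, 0.042) and without EED-/- replicate 1 (1.53, under the fold). So was the call in EED-/- H1, at 2.40, 2.10 and 1.196 in the same order.

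DHRS3, which reduces retinal to retinol and so holds retinoic acid back (ENSG00000162496, chr1:12567910-12618210, minus strand), showed no call in any comparison of the lines. Its level was 7.88 and 25 TPM in WT H1, 16.1 and 26.7 in EED-/- H1, 20.3 and 18.3 in SUZ12-/- H1, and 28.3 and 65.3 in EZH2-/-/EZH1-/- H1. The 2 WT H1 samples were far apart, and 3 of the 6 PRC2-null samples lay between them. At 0.82, the log2 fold change of the average came with an SE of 0.45 (limma adjusted p = 0.14).

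Line by line, the count of genes called followed the background only in part. EED-/- H1 had 6 of 10 genes higher and 1 lower, against 16.2% and 6.09% of all genes. EZH2-/-/EZH1-/- H1 had 5 higher and 1 lower, against 11.6% and 5.66%. SUZ12-/- H1 had 4 higher and none lower, against 14.5% and 5.21%. ALDH1A1, ALDH1A2 and RARB were called higher in each of the 3 lines. Of these, ALDH1A2 and RARB passed the filter on low values only through the PRC2-null samples. Their direction was therefore in part fixed by that filter, and both are in the counts of each line. Over all genes, the share of calls that were higher in EED-/- H1 was 72.7% and became 58.0% after median-ratio scaling, with no change in the 7 members called.

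In EZH1-/- H1 and EZH2-/- H1 none of the 10 genes was called, also not at an FDR of 5% without a fold cutoff. The limma test called 0.0995% of all genes in EZH1-/- H1 (11 higher and 8 lower) and 0% in EZH2-/- H1. Of the 19100 genes tested, 3058 in EZH1-/- H1 and 1110 in EZH2-/- H1 had an unadjusted p under 0.05. Of the members, unadjusted p-values under 0.05 were found for ALDH1A3 and RARG in EZH1-/- H1, with log2 fold changes of 0.54 and 0.61, and for ALDH1A3 in EZH2-/- H1, with 0.76. The smallest adjusted p among members was 0.27 in EZH1-/- H1 and 0.55 in EZH2-/- H1.

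**Figure D3:**
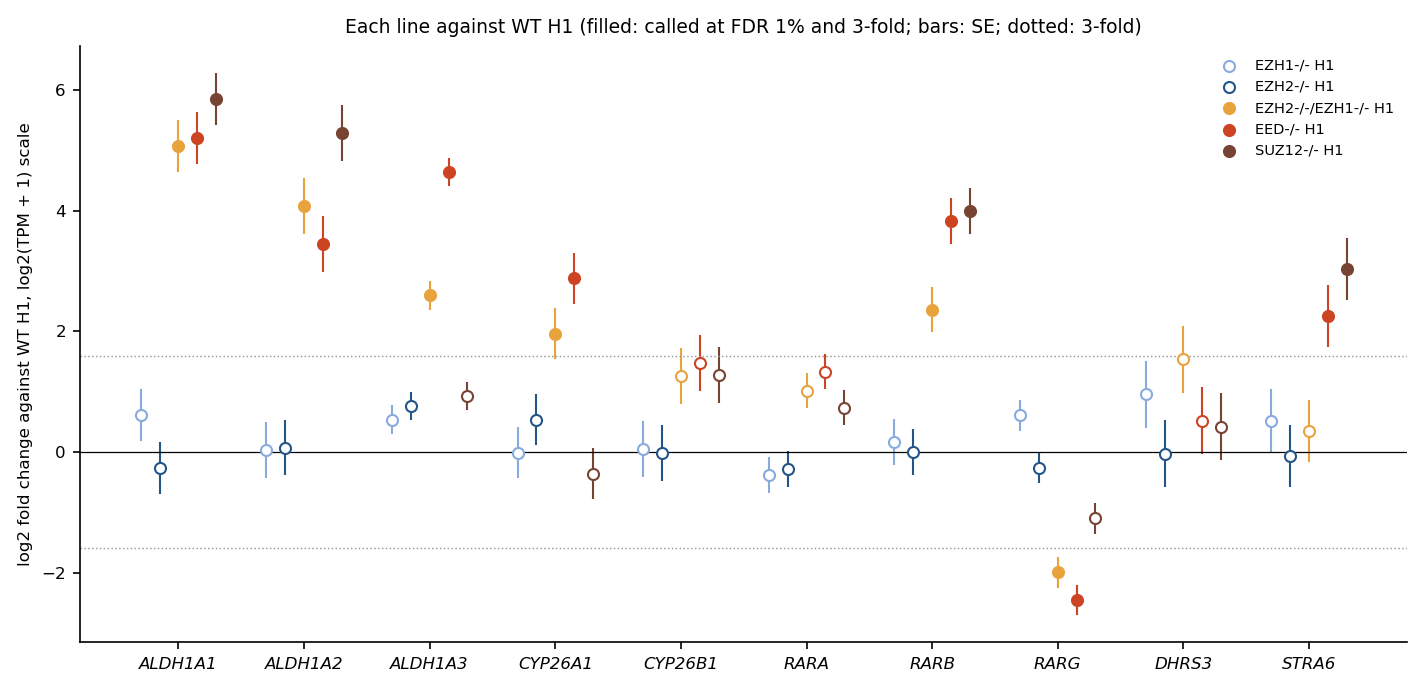
Log2 fold change of each gene against WT H1 on the log2(TPM + 1) scale, for the 5 knockout lines, with bars for the SE and filled points for calls at an FDR of 1% and 3-fold (dotted lines). The 3 PRC2-null lines lie close together for ALDH1A1 and apart for ALDH1A3, CYP26A1 and STRA6, and no point of EZH1-/- H1 or EZH2-/- H1 is filled.

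The PRC2-null lines also differed from one another, most of all in ALDH1A3 and CYP26A1. Between SUZ12-/- H1 and EED-/- H1 these 2 of the 10 genes were called, where 6.12% of all genes were. ALDH1A3 was lower in SUZ12-/- H1 by a log2 difference of -3.71 (SE 0.23, limma adjusted p = 6.3e-06) and CYP26A1 by -3.24 (SE 0.42, limma adjusted p = 0.00047). Both calls held without any 1 of the 4 samples. Between SUZ12-/- H1 and EZH2-/-/EZH1-/- H1, 3 of 10 genes were called against 4.46% of all genes: ALDH1A3 (-1.67, limma adjusted p = 0.00090), CYP26A1 (-2.32, 0.0044) and STRA6 (2.69, 0.0059). Each of these 3 calls was lost without SUZ12-/- replicate 1 (-1.72, -2.499 and 2.63, limma adjusted p of 0.017, 0.032 and 0.059) and without replicate 2 (-1.62, -2.13 and 2.75, limma adjusted p of 0.022, 0.059 and 0.049). CYP26A1 was also lost without EZH2-/-/EZH1-/- replicate 1 (-1.71, limma adjusted p = 0.011), and STRA6 without EZH2-/-/EZH1-/- replicate 2 (2.48, limma adjusted p = 0.034) and without the filter on low values (2.69, limma adjusted p = 0.013). Between EZH2-/-/EZH1-/- H1 and EED-/- H1, ALDH1A3 was called (-2.04, SE 0.23, limma adjusted p = 0.0092), 1 of 10 genes against 0.089% of all genes. That call did not hold without EED-/- replicate 1 (adjusted p = 0.045), EED-/- replicate 2 (0.012) or EZH2-/-/EZH1-/- replicate 2 (0.021), nor with log2(TPM + 0.1) or without the filter on low values (0.012 each). RARG was higher in SUZ12-/- H1 than in EED-/- H1 by 1.35 (limma adjusted p = 0.0040), under the fold required.

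After DOX withdrawal the genes did not move together. With 1 sample at each time there is no test, and the values that follow describe single samples, counted past 3-fold against the +DOX sample on log2(TPM + 1). The number of the 10 genes higher was 2, 2, 2, 5, 2 and 5 at days 8, 12, 16, 20, 24 and 28, against 2.93%, 3.08%, 4.13%, 9.62%, 13.9% and 18.8% of the 17245 genes counted. None was lower until day 28, when RARG was, 1 of 10 against 6.11% of all genes.

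CYP26A1 and DHRS3 were the 2 genes past 3-fold at day 8, and CYP26A1 was below its +DOX level at days 24 and 28. From 18.1 TPM with DOX it went to 162 at day 8, 37.9 at day 12, 123 at day 16 and 163 at day 20, then to 7.41 at day 24 and 13.9 at day 28. The log2 difference from +DOX was thus 3.09 at day 8 and 3.10 at day 20 but -1.18 at day 24 and -0.36 at day 28. CYP26B1 stayed between 0.70 and 3.01 TPM on all 6 days, from 0.84 with DOX.

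The synthesis enzymes came up at different times. ALDH1A3 went from 4.17 TPM with DOX to 7.80, 18.6, 16.5, 36.2, 8.47 and 91.9 on the 6 days in order, so its day 24 value was far below both neighbours. ALDH1A2 was at 0.51 TPM with DOX, at 0.71, 0.96 and 1.05 up to day 16, and then at 4.81, 178 and 13.2. The 178 TPM of day 24 was its highest value in all 19 samples. ALDH1A1 stayed at 0.54 to 1.98 TPM until day 24, from 1.5 with DOX, and was at 45.5 at day 28. Day 24 was thus the only time at which ALDH1A2 made up most of the 3 enzymes, at 95.03% of their summed TPM.

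RARG was at 47.8 TPM with DOX, between 29.0 and 55.6 until day 20, and at 25.6 and 9.68 on days 24 and 28. RARA was at 16.6 TPM with DOX and at 14.5, 17.7, 23.2, 23.8, 36.0 and 40.3 on the 6 days. RARB was listed at 0 with DOX, was at 0.31 to 0.63 TPM up to day 16, and reached 2.73, 2.76 and 4.83. The receptor change of the knockout lines was therefore also seen here by day 28, with RARB below the 8.90 and 23.9 TPM of EED-/- H1. Those levels come from separate sets of samples and are set side by side only as values.

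STRA6 was at 10.01 TPM with DOX and past 3-fold at days 12 and 20, with 42.1 and 53.5 TPM, and at 16.8, 20.3, 23.7 and 18.7 on days 8, 16, 24 and 28. DHRS3 went from 9.34 TPM to 42.8 at day 8, back to 11.6, 4.46, 5.87 and 13.9, and to 59.7 at day 28. Its highest and lowest values were thus both without DOX. Over the same samples the pluripotency sum was 4163 TPM with DOX, 4334 to 4852 through day 16, 2230 at day 20, and 328 and 379 at days 24 and 28. At day 8, when CYP26A1 was at 162 TPM, the pluripotency sum was 4334, and 3 of the 4 neural genes (PAX6, SOX1 and OTX2) were past 3-fold, with a neural sum of 235 TPM against 78.3 with DOX. Their part in the CYP26A1 value was not tested. Like ALDH1A2, the sum of the mesoderm, endothelium and stroma genes was highest at day 24, at 5926 TPM. That sum was 716 at day 20 and 4381 at day 28. Of its genes, COL3A1, ACTA2 and KDR were highest at day 24. HAND1 was highest at day 20 (470 TPM), and PECAM1 (50.4 TPM) and COL1A1 (2279 TPM) at day 28. The part of these genes in the ALDH1A2 value was not tested.

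**Figure D4:**
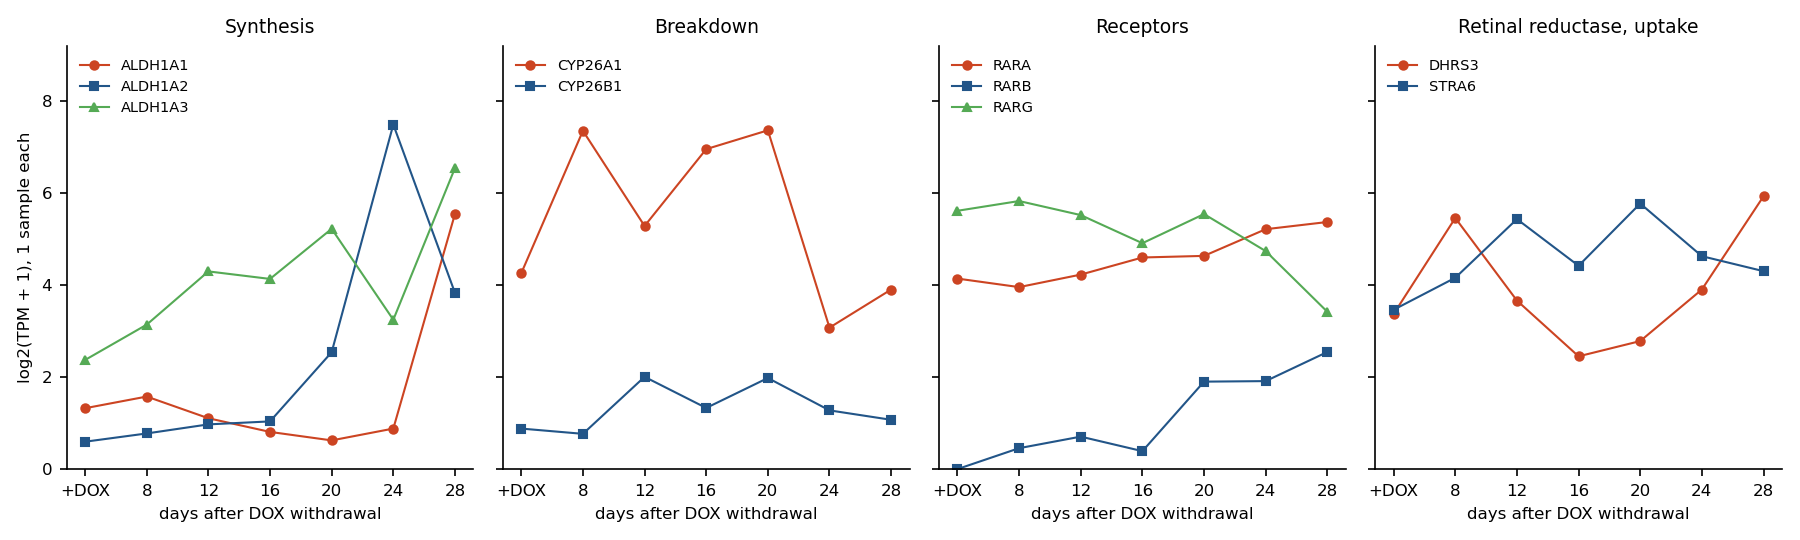
Log2(TPM + 1) of the 10 genes in H1-EED-/-/EED-OE cells with DOX and at 6 days after its withdrawal, with 1 sample for each point. CYP26A1 is past 3-fold at days 8, 16 and 20 with a dip at day 12, and is below its +DOX level at days 24 and 28, ALDH1A2 peaks at day 24, and RARG is lowest at day 28.

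The rest of the pathway was read from 4 lists. Of 12 genes for retinoid uptake, binding and storage 10 could be tested, and 3 were higher and 2 lower in the PRC2-null average, against 13.6% and 5.36% of all genes, with a median log2 fold change of 0.16 where that of all genes was 0.28. The higher genes were carriers: TTR, which holds the RBP4 complex in plasma (10.69), RBP4 itself (4.93) and the cellular retinol binder RBP2 (2.63). The RBP2 average came from SUZ12-/- H1, at 120.3 and 121.6 TPM, since EED-/- H1 and EZH2-/-/EZH1-/- H1 were at 0 to 1.37 TPM and were not called. TTR is also one of the endoderm markers above. The lower genes were CRABP1, a cytoplasmic binder of retinoic acid (-4.65, SE 0.22, limma adjusted p = 1.1e-07), and LRAT, which stores retinol as esters (-2.31, SE 0.43, limma adjusted p = 0.00093). CRABP1 was at 348 and 276 TPM in WT H1 and at 2.61 to 24.2 TPM in the 6 PRC2-null samples, so the groups were far apart. Among those not called were DGAT1 (1.46) and RBP7 (-0.31).

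RBP4 was spread widely over the PRC2-null lines, at 499 and 492 TPM in SUZ12-/- H1, 8.70 and 64.0 in EED-/- H1, and 11.3 and 6.52 in EZH2-/-/EZH1-/- H1, where it was not called (2.57, limma adjusted p = 0.011). The retaining samples were at 0.45 to 1.72 TPM. STRA6, its receptor, was high in SUZ12-/- H1 and in EED-/- H1.

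Among 16 other retinol and retinal oxidoreductases 13 could be tested, and 3 were higher and none lower, again beside 13.6% and 5.36% of all genes, with a median of 0.32. RDH10, the main enzyme that makes retinal from retinol in the embryo, was at 3.87 and 4.84 TPM in WT H1 and at 29.2 to 82.2 TPM in the 6 samples without PRC2. Its log2 fold change was 3.01 (SE 0.25, limma adjusted p = 3.4e-06). CYP1B1, a P450 that can also oxidise retinoids, had 3.88, and AKR1B10, a retinal reductase, had 2.65. ALDH8A1 (1.13), DHRS9 (1.12) and RDH11 (-0.52) were the largest of the rest and were under the fold.

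All 12 RXR and cofactor genes could be tested, and 3 were higher and none lower, beside the same background, with a median of 0.37. Counts this small are given as values, and nothing is read from them about these 3 lists. RXRB and RXRG, partners of the retinoic acid receptors, had 1.66 and 1.62, and the corepressor NRIP1, itself induced by retinoic acid, had 1.80. RXRG, at 0.14 to 4.18 TPM in the PRC2-null samples, was not called in EED-/- H1 (0.88). RXRB (1.42) and NRIP1 (1.42) were not called in EZH2-/-/EZH1-/- H1. HDAC3 (-0.89), NCOA3 (0.76) and RXRA (0.69) were the largest of those not called.

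Of 21 listed symbols of genes known to respond to retinoic acid, which hold RARRES3 also under its newer name PLAAT4, 17 could be tested. Among these, 14 were higher and 1 lower in the PRC2-null average, against 13.6% and 5.36% of all genes, with a median of 3.38. The list was made up with earlier results of these data known, and many of its genes are developmental regulators that also mark mesoderm or endoderm, so it is not independent evidence of retinoic acid signalling. Among the higher genes were the homeobox genes HOXB2 (3.73), HOXB4 (1.70), HOXD4 (2.06), CDX1 (2.91), MEIS1 (3.95) and MEIS2 (4.64), the nuclear receptors NR2F1 (3.88) and NR2F2 (5.74), the T-box factor TBX1 (3.38), the helix-loop-helix factor BHLHE40 (4.67), the transglutaminase TGM2 (5.09) and RARRES1 (2.42). The lower gene was RARRES2, which encodes the secreted protein chemerin (-2.56, SE 0.17, limma adjusted p = 8.5e-07). RARRES1 was called in SUZ12-/- H1 (4.84) but not in EED-/- H1 (1.11) or EZH2-/-/EZH1-/- H1 (1.33), and RARRES2 was not called in SUZ12-/- H1 (-1.07). TBX1 was not called in SUZ12-/- H1 (1.43), and HOXB4 was not called in SUZ12-/- H1 (1.53) or EZH2-/-/EZH1-/- H1 (1.504). In the average, DLX3 (1.31) and RARRES3 (1.29) were under the fold, but RARRES3 was called higher in SUZ12-/- H1 (1.74). The same list gave 13 higher and 1 lower in EED-/- H1, against 16.2% and 6.09% of all genes. It gave 13 and 0 in SUZ12-/- H1, against 14.5% and 5.21%, and 12 and 1 with both enzymes lost, against 11.6% and 5.66%. In EZH1-/- H1 and in EZH2-/- H1 it gave 0 and 0, where 0.0995% and 0% of all genes were called in either direction.

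**Figure D5:**
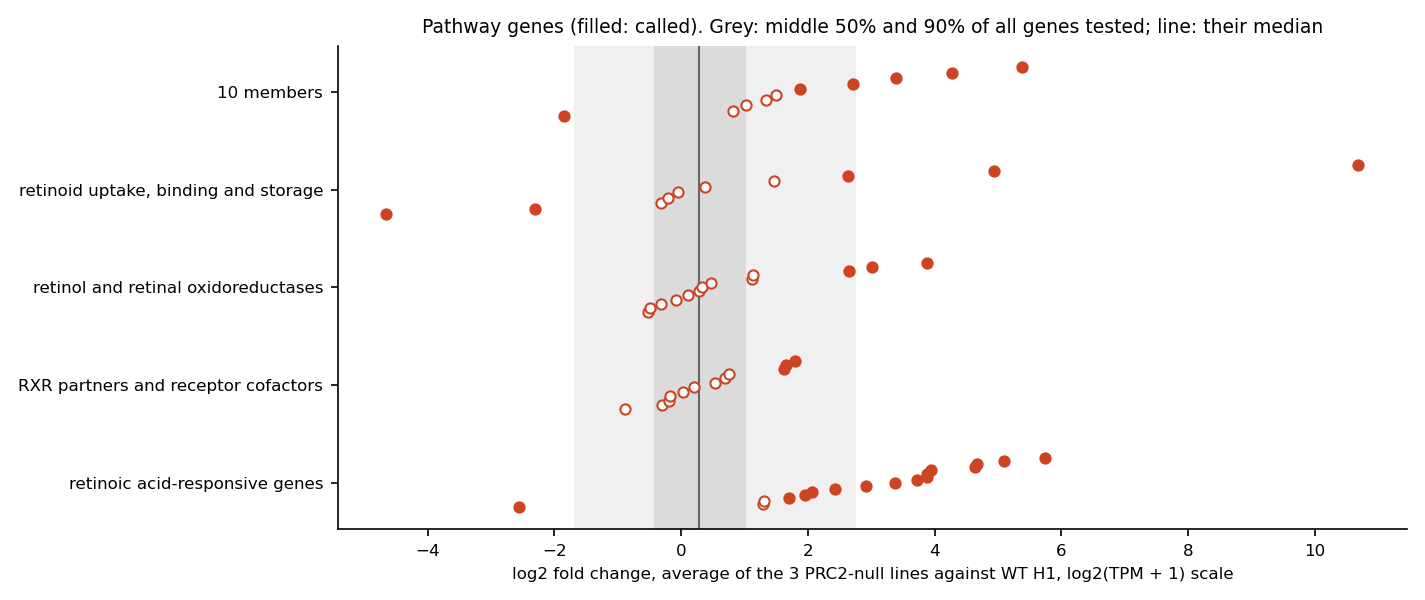
Log2 fold change of the PRC2-null average against WT H1, on the log2(TPM + 1) scale, for the 10 genes and the 4 pathway lists, with 1 point for each gene tested and filled points for calls. The middle 90% of all genes, from -1.67 to 2.74, is shaded, and 10 of the 17 retinoic acid-responsive genes tested lie above it.

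Along the DOX withdrawal, the number of responsive genes past 3-fold was 2, 6, 6, 14, 13 and 14 of 18 at days 8, 12, 16, 20, 24 and 28, with 0, 0, 0, 1, 1 and 1 lower. Of all genes 2.93%, 3.08%, 4.13%, 9.62%, 13.9% and 18.8% were higher on these days. The number of the 7 endoderm markers past 3-fold on the same days was 1, 2, 4, 5, 6 and 6, and their part in the counts was not tested. HOXB2 and CDX1 had their highest values of the course at day 20, at 102 and 43.9 TPM, when CYP26A1 was at 163 TPM. At day 8, when CYP26A1 was at 162 TPM, they were at 2.44 and 1.22 TPM, and at day 24 at 36.3 and 4.29 TPM. TGM2 was at 0.69 to 2.13 TPM through day 20 and at 89.0 and 36.6 TPM at days 24 and 28.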

How the data were processed

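The authors sequenced TruSeq libraries, mapped the reads to human mRNA reference sequences on GRCh38 with Bowtie2 and RSEM, and deposited the TPM of 33382 genes for each of the 19 samples. The submitters' processing notes also name the build hg19 without saying for what, so the positions printed are those of GENCODE 44 and RefSeq on GRCh38. The annotation release behind the TPM is not given in the sources used here, and the role of EDASeq, which the methods name, could not be told from the values. The authors describe edgeR on raw counts. With TPM alone, limma 3.58.1 in R 4.3.3 was used with the same thresholds (lmFit, contrasts.fit and eBayes with trend and robust) on log2(TPM + 1), which understates the change of low genes. The fit held the 12 samples of the lines and the 19100 genes with at least 1 TPM in at least 2 of them. Adjusted p-values are Benjamini-Hochberg over all of these, and the script was tested on simulated data. The 7 samples of the time course were kept out of the fit, since they had no replicates. As 33 gene names differed between the 2 sets of tables, genes were matched across them by Ensembl identifier. The 10 genes and all lists were chosen with earlier results of these data known. Named were the 10 genes, all list genes called in the PRC2-null average, up to 3 of each list with the largest change among the others, and the 2 genes closest in pattern to each member that reached 10 TPM. A few genes that this rule names are not reported here.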

Additional observations from a re-analysis of the deposited data

Results flagged for a closer look

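In 6 cases the same knockout-against-WT comparison gave a different effect in 2 PRC2-null lines, tested directly between those lines with limma. ALDH1A3 differed in all 3 pairs of lines, by a log2 difference of -3.71 for SUZ12-/- H1 against EED-/- H1 (SE 0.23, adjusted p = 6.3e-06), -2.04 for EZH2-/-/EZH1-/- H1 against EED-/- H1 (SE 0.23, adjusted p = 0.0092) and -1.67 for SUZ12-/- H1 against EZH2-/-/EZH1-/- H1 (SE 0.23, adjusted p = 0.00090). CYP26A1 was lower in SUZ12-/- H1 than in EED-/- H1 by -3.24 (SE 0.42, adjusted p = 0.00047) and than in EZH2-/-/EZH1-/- H1 by -2.32 (SE 0.42, adjusted p = 0.0044). STRA6 was higher in SUZ12-/- H1 than in EZH2-/-/EZH1-/- H1 by 2.69 (SE 0.52, adjusted p = 0.0059). In each case both samples of one line lay beyond both samples of the other. The cases were picked by the test on these same samples, so that separation adds no support. Only the calls of ALDH1A3 and CYP26A1 between SUZ12-/- H1 and EED-/- H1 held whichever 1 sample was left out.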

How the results depend on the processing

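None of the 10 genes changed direction in the PRC2-null average under the alternatives run. ALDH1A1, ALDH1A2, ALDH1A3, RARB and RARG kept their calls in all 13 of those with an FDR of 1% and 3-fold. The number of genes called was 5 to 7 for the average (6), 6 to 9 for EED-/- H1 (7), 4 for SUZ12-/- H1 (4) and 5 to 6 for EZH2-/-/EZH1-/- H1 (6) when 1 sample was left out. With an FDR of 5% and no fold cutoff SUZ12-/- H1 had 7, adding ALDH1A3, CYP26B1 and RARG. With only the 4 samples of the line and WT H1, EZH2-/-/EZH1-/- H1 had 3, losing ALDH1A2, CYP26A1 and RARG, and 801 genes of all were higher and 306 lower in place of 2220 and 1081. In EED-/- H1, CYP26B1 (2.27, adjusted p = 0.0016) and RARA (1.81, 0.00056) were gained without replicate 2. CYP26A1 was gained in the average without EZH2-/-/EZH1-/- replicate 2 (1.70) and with a pseudocount of 0.1 (1.61).

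The 6 differences among the PRC2-null lines became 10 at an FDR of 5% with no fold cutoff, 3 to 7 when 1 sample was left out, and 2 when the SUZ12-/- samples were averaged and counted as 1, an alternative chosen after seeing the data because that pair was so close. The 2 that stayed were ALDH1A3 and CYP26A1 in SUZ12-/- H1 against EED-/- H1. Averaging left the counts against WT H1 as they were. At day 28 the 6 genes past 3-fold became 4 with the mean of days 24 and 28.

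At an FDR of 5% with no fold cutoff, the average had 6956 genes higher and 3848 lower in place of 2592 and 1023, EED-/- H1 6518 and 3256 in place of 3099 and 1164, and EZH1-/- H1 143 and 60 in place of 11 and 8. The cause of these shifts was not tested beyond the settings themselves. TPM holds no read depth, so counting error and detection limits could not be given, and whether the SUZ12-/- pair differed by more than sampling noise could not be tested. No paired analysis was possible because the labels give the 2 samples of a line no number that other lines share.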

Other observations

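Other carriers of retinoids also moved along the DOX withdrawal, in single samples without a test. CRABP2, which hands retinoic acid to its receptors, was at 117 TPM with DOX, 660 at day 8, 353 and 348 at days 12 and 16, 1074 at day 20, and 160 and 128 at days 24 and 28, so its 2 highest days, 20 and 8, were also the 2 highest of CYP26A1. CRABP1 went from 596 TPM with DOX to 163 at day 20 and 9.31 at day 24.

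Over the 19 samples, the genes closest in pattern by Pearson's r of log2(TPM + 1), given as a description over samples that share lines, were PAGE4 (0.97) and SPINK1 (0.97) for ALDH1A1, SMAD9 (0.97) and PDGFRB (0.97) for ALDH1A2, NKD1 (0.94) and RTKN (0.94) for ALDH1A3, and MN1 (0.84) and SIX2 (0.81) for CYP26A1. For the receptors they were MOB3A (0.95) and TXNDC11 (0.95) for RARA, PPP1R3C (0.98) and CD164 (0.97) for RARB, and RCOR2 (0.95) and PIF1 (0.95) for RARG. For STRA6 they were ISLR (0.93) and CMKLR1 (0.90), and DHRS3 had the weakest, with DDX56 (0.78) and GTF2IRD2 (0.75). CYP26B1 stayed under 10 TPM in all 19 samples and was left out of this search.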
